A study of Mus musculus with 9 samples.

Results

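Gene expression was compared between mouse cortical neurons labelled PA and neurons labelled control, which make up 6 of the 9 libraries of the study, 3 in each group. PA is a peptide amphiphile, a molecule that couples a short peptide to a lipid-like tail and self-assembles into nanofibres in aqueous solution. All 9 libraries are labelled wildtype and CD1, an outbred stock, and the animals' age, the times in culture and the amounts are not given in the labels. The groups follow the sample titles: the PA libraries carry the name IKVAV, the control libraries the name PDL, which the labels do not spell out, and the remaining 3 libraries combine IKVAV with PEDOT-S-OH and are titled PA + PS2. The treatment label names the peptide amphiphile for the control libraries as well, which conflicts with their titles, and no measured gene checks which of these labels is right. The labels do not say whether repeats 1, 2 and 3 were separate cultures, so a p-value measures the spread between these libraries, which may be technical.

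IKVAV is a cell-binding stretch of the laminin alpha 1 chain. Laminins are trimeric proteins of basement membranes, the thin matrix sheets that line the pial surface and the vessels of the brain, and in culture they promote attachment and axon outgrowth of neurons. Cells bind laminins through integrins, dystroglycan and syndecans, and bound integrins signal through focal adhesion kinase and talin to the actin cytoskeleton. Actin assembly in turn sets the activity of the transcription factor SRF with its MRTF partners and of YAP and TAZ, whose target genes include matrix and contractile genes. The results below follow that order, from the matrix to its receptors and their downstream genes, and then turn to the neurons and the other cells of the culture.

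Total counts ran from 21909305 to 27237398 in the 6 libraries, and genes with at least 1 count numbered 22173 to 24702, with the highest number in PA repeat 2. The mitochondrial genome supplied 0.531% of counts in control repeat 1 and 0.342% in PA repeat 1, against 1.08% to 1.39% in the other 4. Same-numbered libraries of both groups departed alike from their group means, with correlations across genes of 0.42, 0.37 and 0.28 in repeats 1, 2 and 3, while those of different numbers gave −0.32 to 0.016. Departures from a group mean cancel over its 3 libraries, so the values for different numbers are not separate evidence. Neuronal identity was clear in all 6 libraries: Map2, which encodes a microtubule-binding protein of dendrites, stood at 1870, 2020 and 2380 CPM (counts scaled to a common library total) in control repeats 1, 2 and 3 and at 1770, 2130 and 2400 CPM in the PA repeats. Markers of other cells ranged from 0 counts in all 6 libraries to over 100 CPM, and are given with the results they touch.

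No gene passed the test of PA against control. By the quasi-likelihood test of edgeR, 0 of 15712 genes (0%) passed an adjusted p of 0.05, and the smallest adjusted p was 1. The unadjusted p was under 0.05 for 192 genes, 87 higher and 105 lower in PA, where 5% of the genes tested would be 786. DESeq2 and the edgeR fit with the repeat number as a block also passed 0 genes, with 175 and 430 at an unadjusted p under 0.05. With the block on the 6 libraries only, edgeR passed 0 of 15334 genes, with 638 under 0.05. The main fit, with its SE and intervals, leaves out the likeness of same-numbered libraries, so its count under 0.05 depends on that choice. The median log2 fold change, PA over control, was −0.01, with 7422 genes above 0 and 8290 below. All 3 PA libraries lay above all 3 controls for 309 genes (1.97%) and below them for 326 (2.07%). PA was higher in each of the 3 repeats for 1535 genes (9.77%) and lower in each for 2144 (13.6%).

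The data also bounded how far most genes could have moved. For 12176 genes, or 77.5%, the 95% confidence interval of the fold change lay within a 2-fold difference in either direction, and for 9233 (58.8%) within 1.5-fold. Precision followed the level: the share within 2-fold was 98.8% of the 6702 genes at 10 to 100 CPM and 99.7% of the 2580 genes at 100 CPM or more. It was 69.5% of the 4147 genes at 1 to 10 CPM and 4.38% of the 2283 genes under 1 CPM. Abundant neuronal genes were therefore measured closely. For markers of rare cells under 1 CPM, the interval seldom excluded a difference larger than 2-fold.

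**Figure D1:**
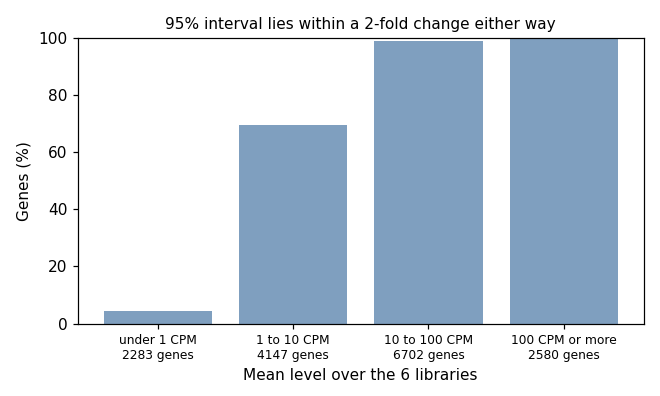
Share of genes (%, vertical axis) whose 95% confidence interval for PA against control lies within a 2-fold difference in either direction, for 4 ranges of mean expression over the 6 libraries (CPM, horizontal axis, with the number of genes). The share is 4.38% under 1 CPM and 99.7% at 100 CPM or more.

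The number of genes that differed widely within a repeat overlapped the number between libraries of the same group. Between PA and control, 906 genes differed more than 2-fold in repeat 1, 626 in repeat 2 and 736 in repeat 3. Between 2 libraries of the same group the number was 753 to 1213 among controls and 1164 to 1746 among PA libraries. Each pair within a group joins different repeat numbers and so also holds the difference between repeats. The counts are therefore not alike, and do not measure the PA difference against the spread between libraries. The direction also turned from repeat to repeat: PA was the lower for 533 of the 906 genes in repeat 1 and for 509 of the 736 in repeat 3, but for 143 of the 626 in repeat 2.

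The 16 protein-coding genes of at least 1 CPM with the smallest unadjusted p are described here without support from any test, since each had an edgeR adjusted p of 1. Spp1 encodes osteopontin, a secreted ligand of integrins (ENSMUSG00000029304, mm10 chr5:104435118-104441050), and had the smallest p of the 16. Its level was 3.16, 2.48 and 1.66 CPM in the controls and at 0.945, 0.461 and 0.752 CPM in PA, a log2 fold change of −1.76 ± 0.42 (SE). Every PA library lay below every control. Gpnmb, a membrane glycoprotein of phagocytes (ENSMUSG00000029816, chr6:49036546-49070929), stood at 3.53, 2.78 and 4.01 CPM in the controls against 1.84, 1.80 and 1.62 CPM in PA (−0.97 ± 0.27). Both genes are also made by cells other than microglia.

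The matrix genes among the 16 were all lower in PA. Col5a2, which encodes an alpha chain of type V collagen (ENSMUSG00000026042, chr1:45374321-45503282), was the most abundant of them at 42.3, 49.4 and 54.2 CPM in the controls and at 30.5, 37.3 and 26.6 CPM in PA (−0.63 ± 0.18). Col8a2, a short-chain collagen (chr4:126286793-126314330), stood at 5.26, 1.04 and 2.49 CPM against 0.900, 0.251 and 0.601 CPM (−2.33 ± 0.71), so that the lowest control was close to the highest PA library. Col4a5, a basement membrane collagen, gave −0.70 ± 0.22, and Nid2, which links laminin to collagen IV, −1.16 ± 0.37. Colec12, a scavenger receptor, gave −1.34 ± 0.42, and Sulf1, which trims sulfates from heparan sulfate chains, −0.77 ± 0.26. Ccn1, a matricellular protein and YAP target (chr3:145646976-145649981), stood at 24.5, 26.1 and 27.3 CPM against 12.6, 19.9 and 11.9 CPM (−0.81 ± 0.26). Palld, an actin-bundling protein, gave −0.51 ± 0.17, and Hrk, a pro-apoptotic BH3 protein of neurons, −0.36 ± 0.12.

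The other 5 of the 16 were higher in PA. Nrgn, a calmodulin-binding protein of dendritic spines (ENSMUSG00000053310, chr9:37544492-37552904), stood at 9.94, 10.5 and 7.87 CPM in the controls and at 16.2, 14.5 and 12.4 CPM in PA. Its log2 fold change was 0.60 ± 0.17, or 1.52-fold with a 95% interval of 1.18 to 1.95. Dbp, a clock-controlled transcription factor, gave 0.75 ± 0.24, and Gper1, a membrane estrogen receptor, 0.95 ± 0.31 with 1.03, 1.00 and 1.10 CPM in the controls against 1.98, 1.97 and 2.10 CPM in PA. Necab3, a calcium-binding protein, gave 1.00 ± 0.32 and Ly6g6e, a surface protein, 0.88 ± 0.28. None of the 16 overlapped between groups, which is what a choice by small p favours.

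**Figure D2:**
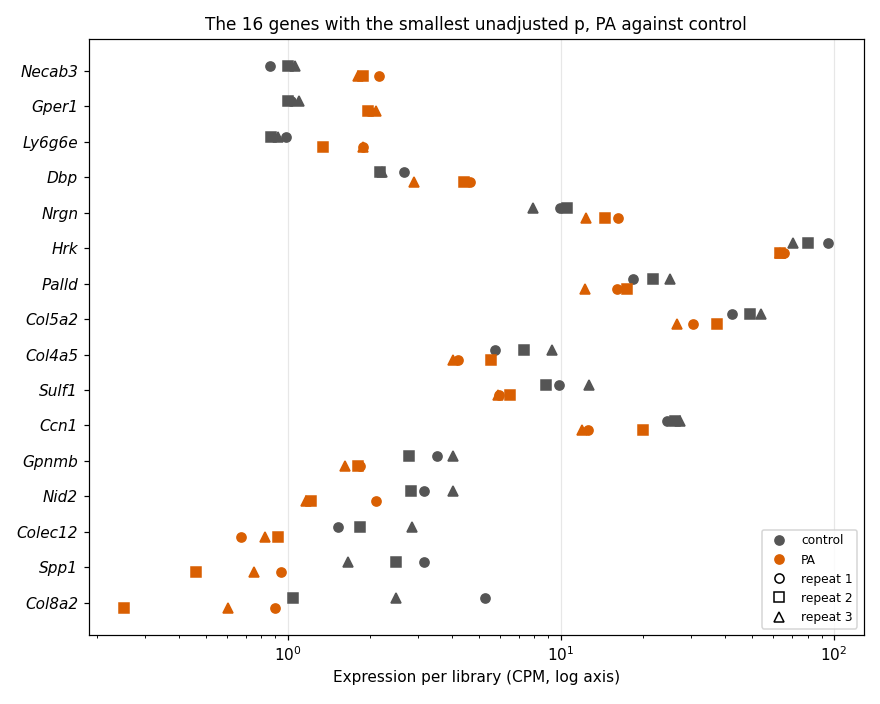
Expression in each library (CPM, log axis) of the 16 genes with the smallest unadjusted p, PA in orange and control in grey, with circles, squares and triangles for repeats 1, 2 and 3. The groups do not overlap for any of the 16, and the edgeR adjusted p is 1 for each; Nrgn lies at 12.4 to 16.2 CPM in PA and 7.87 to 10.5 CPM in control.

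Genes of laminins and the basement membrane were spread around 0. Of 19 listed genes, 18 were tested and 0 passed; 7 lay above 0 and 11 below, with a median of −0.11, against −0.01 over all genes. Their medians within repeats 1, 2 and 3 were 0.07, 0.01 and −0.43, the lowest in repeat 3. Of the 18, 6 were lower in PA in each of the 3 repeats, against 13.6% of all genes. The median of the list was 0.00 without PA repeat 3, −0.22 without PA repeat 2 and −0.20 without control repeat 1. Lama1, the chain that carries the IKVAV sequence in laminin (chr17:67697259-67822647), stood at 9.86, 12 and 8.84 CPM in the controls and at 9.36, 10.3 and 8.15 CPM in PA. The groups overlapped, and the ratio of 0.905 had an interval of 0.675 to 1.21. Apart from Nid2 and Col4a5, Col18a1, which releases endostatin, was the only other member of the list whose groups did not overlap, at 13.2, 15.1 and 13.8 CPM against 7.65, 13.2 and 4.96 CPM (−0.71 ± 0.36), with the groups almost touching. These are 3 of the 18, against 2.07% of all genes.

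Fibrillar and interstitial matrix genes lay lower in PA in all 3 repeats, without passing. Of 20 listed genes, 19 were tested, 17 of them below 0 and 0 called, with a median of −0.42. The repeat medians were −0.96, −0.22 and −0.62, and 11 of the 19 were lower in each of the 3 repeats, where 13.6% of all genes were. Without the 3 repeat 1 libraries the median was −0.24. The groups did not overlap, with PA lower, for 3 of the 19, against 2.07% of all genes: Col5a2, Thbs1 and Col6a2. Thbs1, which encodes thrombospondin 1, a synapse-promoting protein secreted by astrocytes, stood at 98.8, 101 and 136 CPM in the controls and at 95, 79.2 and 84.3 CPM in PA (−0.38 ± 0.14). Lox, the enzyme that crosslinks collagen, gave 6.08, 5.70 and 3.68 CPM against 1.26, 3.73 and 1.65 CPM (−1.22 ± 0.46), with a narrow overlap between PA repeat 2 and control repeat 3.

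The collagen I chains varied widely between libraries of a group, Col1a2 mainly among the controls. Col1a1 stood at 34.8, 54.8 and 18.0 CPM in the controls and at 15.7, 38.9 and 10.1 CPM in PA, and Col1a2 at 18.7, 9.04 and 4.60 CPM against 3.82, 5.91 and 2.97 CPM. Their log2 fold changes were −0.74 ± 0.61 and −1.35 ± 0.61. Both were lower in PA in each repeat, yet the groups overlapped for both. These collagens are made chiefly by fibroblasts, pericytes and meningeal cells. The list for those cells moved the same way: 9 of its 12 tested members lay below 0, with a median of −0.35 and 0 called. It shares Col1a1, Col1a2, Dcn and Lum with the matrix list. Its summed level was 68.7 to 115 CPM in the controls and at 43.3 to 100 CPM in PA, and the pericyte channel gene Kcnj8 had at most 2 counts in any of the 6 libraries. In bulk RNA, fewer cells of a type and less RNA per cell cannot be told apart. The part of these cells in the matrix values was not tested. The fibroblast median depended on single libraries: it was −0.09 without PA repeat 3, −0.12 without control repeat 2, −0.55 without control repeat 1 and −0.85 without PA repeat 2. The matrix median was −0.24 without PA repeat 1, −0.30 without PA repeat 3 and −0.96 without PA repeat 2, and stayed below 0 whichever of the 6 libraries was left out.

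Receptors for laminin were measured closely and did not separate the groups. All 16 listed genes were tested and 0 passed; 4 lay above 0 and 12 below, the median was −0.05, and 0 of the 16 had groups without overlap in either direction. The interval lay within 2-fold for 13 of the 16. Itgb1, the beta chain shared by the laminin-binding integrins, stood at 91.9, 128 and 125 CPM in the controls and at 76.0, 128 and 104 CPM in PA, a ratio of 0.892 with an interval of 0.684 to 1.16. Its alpha partner Itga3 stood at 36.4, 32.6 and 28.0 CPM against 32.8, 30.6 and 26.8 CPM (ratio 0.929, interval 0.728 to 1.19). Itga6, the other main laminin-binding alpha chain in neural cells, stood at 24.0, 30.9 and 29.0 CPM against 25.2, 37.3 and 27.2 CPM (ratio 1.07, interval 0.844 to 1.35). Dag1, which encodes dystroglycan, was the most abundant receptor of the 4, at 259, 247 and 254 CPM against 287, 203 and 248 CPM (ratio 0.969, interval 0.814 to 1.15). For these 4 genes the groups overlapped.

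Less abundant receptors were less well bounded. Itga1, which pairs with Itgb1 to bind collagen and laminin, stood at 2.75, 3.26 and 5.11 CPM in the controls and at 1.84, 3.98 and 2.74 CPM in PA (−0.37 ± 0.33). Rpsa, which encodes a ribosomal protein also described as a laminin receptor, was counted at 3.27 to 4.78 CPM only; it has many near-identical pseudogene copies, so its count is uncertain. Of 8 tested receptors for fibronectin and vitronectin, 3 lay above 0 and 5 below, with 0 called and a median of −0.12, which ran from −0.29 without PA repeat 2 to 0.04 without control repeat 3. Among them Itga5, the fibronectin receptor chain, gave −0.49 ± 0.32, and Itga9, which binds tenascin C and osteopontin, 0.33 ± 0.25.

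Genes of adhesion signalling stayed within narrow bounds. Of 20 listed, 19 were tested, 7 above 0 and 12 below, with 0 called and a median of −0.05, and for 18 of the 19 the interval lay within 2-fold. Cdc42, a small GTPase of filopodia and growth cones, stood at 340, 400 and 431 CPM in the controls and at 242, 351 and 404 CPM in PA (−0.23 ± 0.17). Vcl, the focal adhesion protein vinculin, stood at 23.6, 30.0 and 24.3 CPM against 21.7, 25.7 and 19.6 CPM (−0.22 ± 0.17). Ptk2b, the calcium-sensitive relative of focal adhesion kinase, gave 6.82, 3.30 and 5.98 CPM against 7.92, 4.77 and 8.64 CPM (0.41 ± 0.28). It was higher in PA in each repeat, although the groups overlapped. The integrin-linked kinase gene Ilk had only 1 to 6 counts in a library and was not tested.

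Actomyosin genes and targets of SRF leaned lower in repeats 2 and 3 and not in repeat 1. All 22 were tested, with 3 above 0, 19 below and 0 called, and the repeat medians were 0.05, −0.13 and −0.28. The groups did not overlap for 3 of the 22 with PA lower (Cnn2, Cnn3 and Palld), against 2.07% of all genes, and for 1 with PA higher, the SRF cofactor gene Mrtfb, against 1.97%. The overall median of −0.13 was −0.02 without PA repeat 3 and −0.21 without PA repeat 2. Cnn2, which encodes the actin-binding calponin 2, stood at 16.8, 22.8 and 22.1 CPM in the controls and at 15.3, 16.2 and 12.5 CPM in PA (−0.49 ± 0.18, edgeR adjusted p = 1). Myl9, a regulatory light chain of smooth muscle and non-muscle myosin, stood at 7.23, 11.1 and 13.7 CPM against 7.87, 10.8 and 7.52 CPM (−0.29 ± 0.33). Within repeats 1, 2 and 3 its log2 difference was 0.12, −0.05 and −0.86, and the groups overlapped.

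The promoters of these 2 genes are shown because they hold the CArG box, the sequence that SRF binds. They are RefSeq sequences of mouse build GRCm38.p6, 300 bases around the start of the gene, on the plus strand at chr10:79988350-79988649 for Cnn2 and chr2:156775214-156775513 for Myl9. Capitals mark the CArG box, a pattern that is its own reverse complement, so that a search covers both strands.
Cnn2: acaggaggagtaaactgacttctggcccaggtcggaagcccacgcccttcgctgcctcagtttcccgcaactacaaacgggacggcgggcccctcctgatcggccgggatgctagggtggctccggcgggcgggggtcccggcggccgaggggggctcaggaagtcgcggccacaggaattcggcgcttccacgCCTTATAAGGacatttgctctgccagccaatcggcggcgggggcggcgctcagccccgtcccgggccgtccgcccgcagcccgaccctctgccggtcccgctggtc
Myl9: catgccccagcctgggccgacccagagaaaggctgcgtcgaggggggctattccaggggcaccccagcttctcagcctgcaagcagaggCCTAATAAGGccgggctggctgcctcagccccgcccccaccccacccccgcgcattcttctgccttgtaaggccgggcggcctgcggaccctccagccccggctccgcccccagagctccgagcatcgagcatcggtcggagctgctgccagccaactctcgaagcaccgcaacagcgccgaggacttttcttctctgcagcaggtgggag
A CArG box was found in 1.63% of 32851 promoters of this length, and in 5 of the 26 promoters (19.2%) of the 20 actomyosin genes in the table, 1 each of Actg1, Cnn2, Myl6, Myl9 and Srf. It was also in 4 of 17 promoters (23.5%) of immediate-early genes, all 4 of them overlapping or nearby starts of Egr2. Promoter sequences were available for 13 of the 17 listed immediate-early genes, and boxes outside the 300 bases were not searched. Of the pair shown, Cnn2 had separate groups and Myl9 overlapping ones. A match of letters is a description and not a measured binding site.

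Of 15 tested genes of YAP, TAZ and their targets, 3 lay above 0 and 12 below, with 0 called and a median of −0.14. The repeat medians were 0.00, −0.04 and −0.41, and 14 of the 15 were lower in PA in repeat 3 but 8 in repeat 1. Ccn1 and Ptpn14 were the 2 of the 15 whose groups did not overlap, with PA lower, against 2.07% of all genes. The median was −0.01 without control repeat 3, −0.05 without PA repeat 1, −0.26 without control repeat 1 and −0.24 without PA repeat 2. Ptpn14, a phosphatase that binds YAP, stood at 5.01, 6.30 and 6.63 CPM in the controls and at 4.23, 4.02 and 3.57 CPM in PA (−0.60 ± 0.37).

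Neuronal genes were closely measured in these cultures and lay near 0. Of 22 genes of mature neurons, 15 lay above 0 and 7 below, with a median of 0.01. Nrgn was the 1 of the 22 whose groups did not overlap, PA higher, against 1.97% of all genes. Of 16 genes of immature neurons, 11 lay above 0 and 5 below, with a median of 0.07. For every member of both lists the interval lay within 2-fold, and 0 were called. Map2 had a ratio of 1.00 with an interval of 0.824 to 1.22. Tubb3, a neuronal tubulin and one of the most abundant transcripts, stood at 2450, 2040 and 2240 CPM in the controls and at 3070, 1780 and 2510 CPM in PA (ratio 1.09, interval 0.852 to 1.40). Rbfox3, the gene of the nuclear marker NeuN, stood at 108, 94.4 and 96.5 CPM against 132, 92.4 and 104 CPM (ratio 1.10, interval 0.900 to 1.33). Sox4, a transcription factor of young neurons, gave 586, 473 and 443 CPM against 745, 491 and 521 CPM (0.23 ± 0.16), higher in PA in each repeat with overlapping groups.

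Immature neuron genes turned with the repeat: 13 of the 16 were higher in PA in repeat 1 and 14 in repeat 3, but 12 were lower in repeat 2. Axon growth and guidance genes did likewise, with 15 and 16 of 21 higher in repeats 1 and 3 and 15 lower in repeat 2. Their median was 0.02, with 13 above 0, 8 below and 0 called, and the interval lay within 2-fold for all 21. Genes of cortical excitatory subtypes, 16 in number, had a median of 0.03, with 10 above 0, 6 below and 0 called. Crym, a thyroid hormone-binding protein of deep-layer neurons, was the member with the smallest p, at 7.23, 4.39 and 6.08 CPM in the controls and at 8.50, 8.17 and 7.10 CPM in PA (0.42 ± 0.23).

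Synaptic genes lay near 0 too. Of 21 presynaptic genes, 12 lay above 0 and 9 below (median 0.05), of 21 genes of the glutamatergic postsynapse 12 above and 9 below (median 0.02), and 0 were called. The interval lay within 2-fold for 20 and 21 of them. Snap25, a SNARE protein of vesicle fusion, stood at 235, 284 and 254 CPM in the controls and at 171, 309 and 239 CPM in PA (ratio 0.929, interval 0.719 to 1.20). Syt2, a calcium sensor of fast release, was the 1 of 21 presynaptic genes without overlap, PA higher, against 1.97% of all genes. It stood at 2.46, 2.35 and 2.03 CPM against 2.52, 3.69 and 2.56 CPM (0.36 ± 0.27). Its groups were almost in contact. Slc17a7, the vesicular glutamate transporter of cortical excitatory neurons, stood at 32.9, 30.0 and 18.3 CPM against 36.7, 34.0 and 30.2 CPM (0.31 ± 0.20), higher in PA in each repeat.

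The 2 glutamate receptor subunits that mark the maturation of NMDA receptors gave overlapping groups. Grin2b, the subunit that prevails early, stood at 683, 623 and 976 CPM in the controls and at 776, 792 and 954 CPM in PA (ratio 1.11, interval 0.866 to 1.41). Grin2a, which comes up later, stood at 20.7, 25.9 and 29.6 CPM against 23.0, 38.1 and 27.9 CPM (ratio 1.17, interval 0.884 to 1.55). Shank2, a scaffold of the postsynaptic density, stood at 168, 136 and 148 CPM against 204, 145 and 176 CPM (0.22 ± 0.13).

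GABAergic genes had a median of −0.02, with 7 of 17 above 0, 10 below and 0 called. Gad1, the enzyme that makes most of the GABA in neurons, stood at 239, 212 and 235 CPM against 190, 205 and 202 CPM. It was the 1 of the 17 without overlap, PA lower, against 2.07% of all genes. Its ratio of 0.870 had an interval of 0.759 to 0.996, and the edgeR adjusted p was 1. Its partner enzyme Gad2 stood at 72.1, 75.7 and 106 CPM against 70.3, 68.7 and 84.0 CPM (ratio 0.880, interval 0.707 to 1.09), with overlapping groups. Pvalb, the marker of fast-spiking interneurons, had at most 1 count in any of the 6 libraries and was not tested.

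Of 20 voltage-gated channel genes, 12 lay above 0 and 8 below, with a median of 0.02 and 0 called, and all 20 intervals lay within 2-fold. Kcnn2, a calcium-activated potassium channel, stood at 10.6, 11.5 and 12.5 CPM in the controls and at 12.5, 16.5 and 14.8 CPM in PA (0.34 ± 0.14), higher in each repeat and touching at 12.5 CPM. The chloride transporters that set the sign of GABA responses did not separate. Slc12a5, which extrudes chloride in mature neurons, had a ratio of 1.07 (interval 0.909 to 1.26), and Slc12a2, which imports it, 0.855 (interval 0.669 to 1.09).

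**Figure D3:**
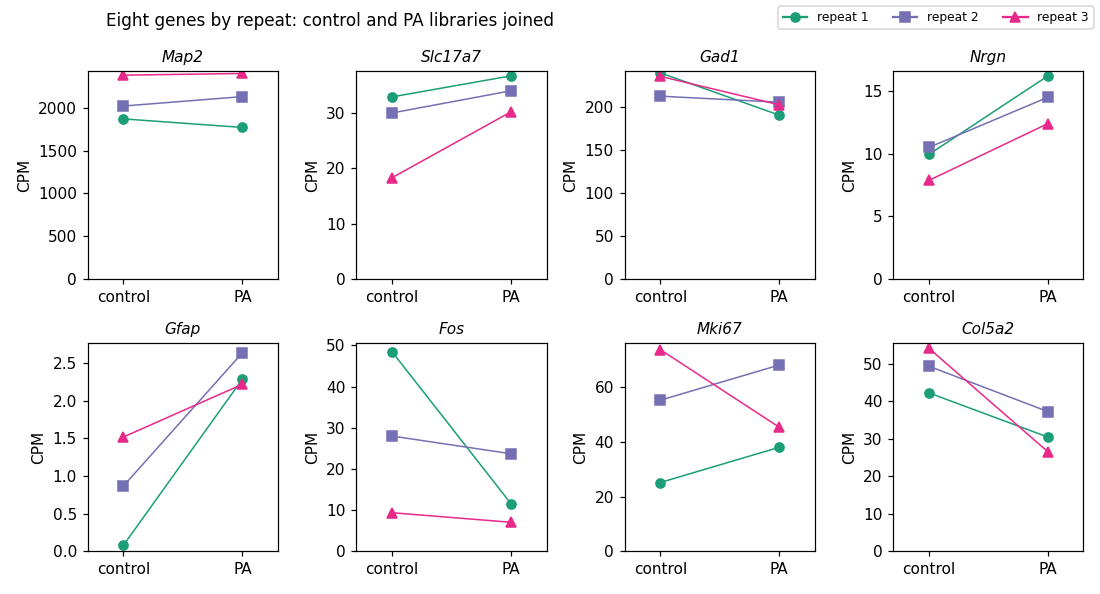
Expression (CPM, linear axes from 0) of 8 genes in control and PA, with a line joining the libraries that share a repeat number. Map2 lies close together, without a shared direction. In all 3 repeats Nrgn, Slc17a7 and Gfap are higher in PA, and Gad1, Col5a2 and Fos lower. Fos and Gfap differ most in repeat 1, and the lines of Mki67 cross.

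The difference in activity-dependent genes was largest in repeat 1, with PA lower. Immediate-early genes are transcribed within minutes of calcium entry in neurons, and also after serum or handling. All 17 tested members lay below 0, with a median of −0.37, 0 called and 0 with groups that did not overlap. In repeat 1 all 17 were lower in PA, with a median of −0.77. In repeats 2 and 3, 12 and 13 of the 17 were lower, with medians of −0.10 and −0.12. PA was lower in each of the 3 repeats for 9 of the 17, against 13.6% of all genes. Control repeat 1 held the highest summed level, 1180 CPM, and the other 2 controls 1070 and 669 CPM, against 713, 1040 and 651 CPM in PA. Without the 3 repeat 1 libraries the median was −0.02, and without control repeat 1 alone it was −0.10; without PA repeat 3 it was −0.22 and without control repeat 3 −0.57.

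Several members showed that pattern singly. Fos, part of the AP-1 transcription factor (chr12:85473890-85477273), stood at 48.5, 28.0 and 9.39 CPM in the controls and at 11.6, 23.7 and 7.07 CPM in PA (−1.02 ± 0.59). Npas4, which responds to calcium entry rather than to growth factors, stood at 80.6, 38.3 and 12.3 CPM against 19.2, 44.1 and 11.3 CPM (−0.82 ± 0.66). In both genes the 2 libraries of repeat 3 were the lowest of their group, so the level followed the repeat as well as the group. Egr1 gave 31.9, 9.56 and 6.22 CPM in the controls against 8.68, 6.37 and 5.49 CPM in PA. Arc, a regulator of AMPA receptor uptake, gave −0.93 ± 0.50, and Jun, the partner of Fos, 117, 114 and 70.9 CPM against 84.2, 85.7 and 63.3 CPM (−0.37 ± 0.20).

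The delayed activity genes, which follow within hours, were lower in PA in repeat 1 for 17 of 18 members, but higher for 12 of 18 in repeat 2 and 9 of 18 in repeat 3. Their median was −0.15 over all libraries and 0.03 without the 3 repeat 1 libraries, ranging from −0.37 without PA repeat 2 to −0.03 without PA repeat 1, and 0 were called. Bdnf, the neurotrophin whose transcription follows activity, stood at 18.0, 21.2 and 7.04 CPM in the controls and at 5.85, 24.9 and 7.85 CPM in PA (ratio 0.835, interval 0.399 to 1.75). Rgs2, a brake on G protein signalling, stood at 107, 83.6 and 89.6 CPM against 66.4, 88.6 and 77.8 CPM (−0.27 ± 0.13). Of 10 tested neurotrophins and receptors, 5 lay above 0 and 5 below, with 0 called. Igf1, a growth factor made by interneurons and microglia, had the smallest p of them, at 9.86, 13.8 and 16.3 CPM against 6.12, 11.6 and 8.27 CPM (−0.61 ± 0.24).

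Among the 6 libraries, astrocyte genes were lowest in control repeat 1. Of 16 tested members, 13 lay above 0 and 3 below, with a median of 0.17 and 0 called, and the repeat medians were 0.92, 0.17 and −0.09. The summed level was 378, 483 and 568 CPM in the controls and at 505, 510 and 527 CPM in PA. Control repeat 1 was thus the lowest and control repeat 3 the highest of the 6 libraries, with PA between. Without control repeat 1 the median was 0.00, without control repeat 2 or 3 it was 0.31 or 0.38, and without the 3 repeat 1 libraries −0.02. The PA + PS2 libraries stood at 393, 428 and 464 CPM in repeats 1, 2 and 3. All of these lay above control repeat 1 and below the other controls and every PA library. Control repeat 1 also had the highest sum of immediate-early genes. The mitochondrial share was lowest in repeat 1 of each group, at 0.531% in control, 0.342% in PA and 0.786% in PA + PS2. The part of the make-up of these libraries in the differences of repeat 1 was not tested. Gjb6, a connexin of mature astrocytes, had 0 counts in all 6 libraries.

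The groups did not overlap, with PA higher, for 3 of the 16, against 1.97% of all genes, and Gfap and Aldoc were among them. Gfap, the intermediate filament of astrocytes (chr11:102887336-102900912), stood at 0.0822, 0.869 and 1.52 CPM in the controls and at 2.29, 2.64 and 2.22 CPM in PA (1.55 ± 0.69). Aldoc, an isoform of aldolase enriched in astrocytes, was measured at 3.00, 10.9 and 12.2 CPM against 18.0, 18.7 and 15.6 CPM (1.00 ± 0.40). Both were higher in PA in each repeat, by the most in repeat 1. For Gfap the difference in repeat 1 rests on very few counts in the control library, at 0.0822 CPM. Other members overlapped between groups: Slc1a3, the glutamate transporter GLAST, stood at 22.3, 53.1 and 70.8 CPM against 51.2, 59.5 and 62.7 CPM (0.25 ± 0.31), and Gja1, the connexin of astrocyte gap junctions, at 6.24, 13.6 and 14.5 CPM against 10.2, 12.1 and 10.2 CPM (−0.08 ± 0.26). Apoe, the main lipid carrier of the brain, gave 0.48 ± 0.23, and Aqp4, the water channel of astrocyte end feet, 0.85 ± 0.55.

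Of 9 tested genes linked to reactive astrocytes, 3 lay above 0 and 6 below, with a median of −0.28 and 0 called. The median was −0.02 without PA repeat 1, and −0.14 without control repeat 2 and −0.15 without control repeat 3. Vim, an intermediate filament of progenitors, astrocytes and fibroblasts, stood at 186, 227 and 241 CPM in the controls and at 176, 196 and 166 CPM in PA (−0.28 ± 0.12). Tnc, the matrix protein tenascin C, went the other way, at 27.2, 81.3 and 78.7 CPM against 90.8, 109 and 88.4 CPM (0.63 ± 0.31). It was the 1 of the 9 without overlap, PA higher, against 1.97% of all genes. Emp1, a membrane protein of injured tissue, gave −0.55 ± 0.33.

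Microglial genes were scarce. Of 14 tested, 4 lay above 0 and 10 below, with a median of −0.23 and 0 called, and the summed level was 24.1 to 25.5 CPM in the controls and at 18.0 to 20.2 CPM in PA, so that these sums did not overlap. Without PA repeat 2 the median was −0.12. Spp1 and Gpnmb, which other cells also make, were the 2 of the 14 members without overlap, PA lower, against 2.07% of all genes. Both are among the 16 genes chosen above for their small p. Both also count in the sums, at means of 2.43 and 3.44 CPM in the controls against 0.719 and 1.75 CPM in PA. The defining genes were near the limit of counting: P2ry12 had 4 counts in PA repeat 1, 1 in PA repeat 2 and 0 in the other 4 libraries, and Tmem119 had 0 to 7. Csf1r, the receptor microglia need to survive, stood at 0.945, 0.869 and 1.38 CPM against 1.03, 0.712 and 1.09 CPM, a ratio of 0.891 with an interval of 0.471 to 1.68. Cx3cr1, the fractalkine receptor, gave −0.65 ± 0.54. The part of microglia in the values of Spp1 and Gpnmb was not tested.

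Choroid plexus and ependymal genes lay below 0 for all 8 tested members, with a median of −0.72 and 0 called. The repeat medians were −0.54, 0.02 and −1.21, near 0 in repeat 2 alone, and without control repeat 3 the overall median was −0.30. Ttr, the transthyretin of the choroid plexus, stood at 14.4, 1.39 and 30.4 CPM in the controls and at 9.81, 1.51 and 7.44 CPM in PA (−1.30 ± 0.80), and both libraries of repeat 2 were the lowest of their group. Clic6, a chloride channel protein of secretory epithelia, stood at 0.739, 0.217 and 0.875 CPM against 0.135, 0.0419 and 0.338 CPM (−1.76 ± 0.79), values that rest on few counts. Otx2, the transcription factor of that epithelium, was the 1 of the 8 without overlap, PA lower, against 2.07% of all genes. It stood at 1.15, 1.17 and 2.44 CPM against 0.810, 1.13 and 0.977 CPM.

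Of the remaining cell types, 13 oligodendrocyte lineage genes had a median of −0.11 with 5 above 0, 8 below and 0 called, and 0.02 without control repeat 2. Mag, a myelin glycoprotein, stood at 0.698, 0.348 and 0.552 CPM in the controls and at 2.20, 0.377 and 1.32 CPM in PA (1.27 ± 0.56). Only 5 of 12 endothelial genes were abundant enough to test, with 3 above 0 and 2 below, and Tie1 and Cldn5 had 0 counts in all 6 libraries. Ogn, a matrix proteoglycan of meningeal fibroblasts, stood at 2.88, 2.78 and 4.93 CPM against 0.720, 2.05 and 2.22 CPM (−1.07 ± 0.41). It was among 2 of the 12 tested fibroblast, pericyte and meningeal genes without overlap, PA lower, against 2.07% of all genes.

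Dividing cells and progenitors turned direction from repeat to repeat. Of 22 proliferation genes, 21 were higher in PA in repeat 1 and all 22 were lower in repeat 3, with repeat medians of 0.52, −0.01 and −0.44 and 0 called. The overall median of −0.03 was −0.28 without control repeat 1 and 0.13 without control repeat 3. Mki67, the classical marker of cycling cells, stood at 25.2, 55.3 and 73.8 CPM in the controls and at 38.1, 68.2 and 45.4 CPM in PA, a ratio of 0.984 with an interval of 0.600 to 1.61. Top2a, which untangles chromosomes in mitosis, had a ratio of 0.883 (interval 0.564 to 1.38), and Mcm3, a subunit of the replication helicase, 1.13 (interval 0.778 to 1.64). The summed level of the list was 239, 430 and 500 CPM in the controls, so control repeat 1 was the lowest of the 6 here as well, against 330, 436 and 366 CPM in PA. Of 15 radial glia and progenitor genes, 13 were higher in PA in repeat 1 and 13 lower in repeat 3. Hopx, a gene of outer radial glia, stood at 0.534, 1.04 and 0.737 CPM against 0.810, 2.30 and 1.77 CPM (1.08 ± 0.42).

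**Figure D4:**
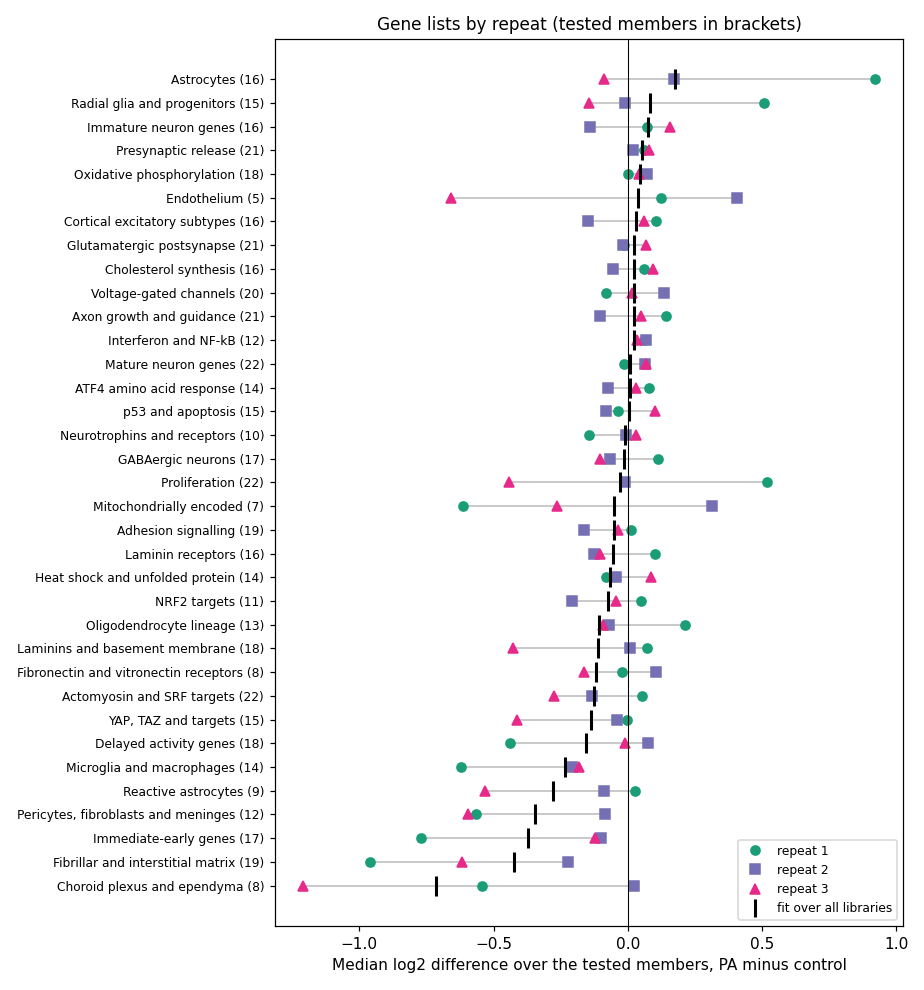
Median log2 difference between PA and control (horizontal axis) over the tested members of each of the 35 gene lists, with the number of members in brackets. Coloured points show repeats 1, 2 and 3 and black bars the fit over all libraries; neuronal lists lie near 0 in every repeat, whereas astrocyte, progenitor and immediate-early lists lie apart from 0 mainly in repeat 1 and the proliferation list lies on opposite sides in repeats 1 and 3, and 0 genes of any list passed.

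Stress and metabolic genes were close to 0. The median was 0.01 for 14 targets of ATF4, the factor of the amino acid response, −0.07 for 11 NRF2 targets of the antioxidant response, and −0.07 for 14 heat shock and unfolded protein genes. It was 0.00 for 15 p53 and apoptosis genes, 0.02 for 16 genes of cholesterol synthesis and 0.05 for 18 nuclear genes of oxidative phosphorylation, and 0 genes of these lists were called. The interval lay within 2-fold for all members of the cholesterol, heat shock and oxidative phosphorylation lists. Slc7a11, the cystine transporter, which is a target of both ATF4 and NRF2, gave −0.60 ± 0.31, and Aldh1l2, a mitochondrial enzyme of folate metabolism, stood at 80.5, 55.5 and 89.7 CPM in the controls and at 98.3, 66.8 and 99.2 CPM in PA (0.23 ± 0.19). Eda2r, a death receptor under p53 control, gave −0.67 ± 0.47.

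Of 12 tested interferon and NF-kB genes, 6 lay above 0 and 6 below, with a median of 0.02 and 0 called. Ccl5, a chemokine, was the 1 of the 12 without overlap, PA higher, against 1.97% of all genes. It stood at 0.205, 0.0435 and 0.322 CPM in the controls and at 0.765, 0.712 and 0.752 CPM in PA (1.95 ± 0.60), values that rest on few counts. The 7 tested mitochondrially encoded genes were lower in PA in repeats 1 and 3 and higher in repeat 2, with repeat medians of −0.61, 0.31 and −0.26.

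The libraries with PS2 differ from PA in the added PEDOT-S-OH, and the labels give no doses. By edgeR, 0% of genes passed as lower and 0% as higher in PA + PS2 than in PA, but this count depends on the tool: DESeq2 called 136 genes and the fit with the repeat block 57. At an unadjusted p under 0.05, edgeR counted 881 genes, where 5% would be 786. For the members with the smallest p above, the levels differed by gene. Col5a2 stood at 15.9, 16.1 and 10.4 CPM in PA + PS2, below all PA and all control libraries, and so did Ccn1 at 9.91, 8.29 and 4.28 CPM. Gpnmb went the other way, at 7.07, 5.24 and 10.1 CPM, above all libraries of both other groups (edgeR adjusted p = 0.10 against PA). Spp1, at 0.866, 0.848 and 1.87 CPM, overlapped both other groups, as did Nrgn, at 10.3, 11.9 and 13.1 CPM. Of the 19 fibrillar matrix genes 18 lay below 0 for PA + PS2 against PA, with a median of −0.71, and of the 22 proliferation genes 21, with a median of −0.97. PA itself gave −0.42 and −0.03 for these lists against control. The 2 comparisons share the PA libraries.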

How the data were processed

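The deposited files hold raw read counts per Ensembl gene, 1 file per library, with 54232 genes. Per the submitters' processing notes, HTSeq 2.0.2, STAR 2.7.5, cutadapt 4.2 and DESeq2 1.14.1 were used with build mm10, without settings given; annotation release and strand setting are not given in the sources used here, so overlapping genes and near-identical copies are uncertain. The molecule label reads polyA RNA, whereas the protocol names a total RNA kit. Symbols and positions came from GENCODE M21, which matched 54165 identifiers.

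Counts were fitted over all 9 libraries, which share 1 estimate of the spread, with the quasi-likelihood test of edgeR 4.0.16 (R 4.3.3): TMM scaling, filterByExpr (minimum count 10, minimum total 15; 15712 genes, 99.9% of counts), 6 residual degrees of freedom, 2-sided, Benjamini-Hochberg adjustment over all genes. SE was derived from each gene's F statistic, as |log2 fold change| / √F. CPM values use TMM-scaled totals. Repeat differences are of log2 CPM with a prior count of 2. Repeat numbers were taken to pair the libraries in these differences, since each pair's correlation was over 0.1, but the main fit has no block. Alternatives included DESeq2 1.42.0, a replicate block, and leaving out libraries. The test was also run on simulated counts with the same spread for every gene and no repeat effect. Of 100 genes changed 2-fold it recovered 93, and of 100 changed 4-fold 100, with 7 false calls. The spread of the real counts varies between genes, so these shares do not give the power of the comparison.

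The comparison and the 35 lists (574 symbols, 530 tested) were chosen with earlier results of these data known. Named genes were the 16 smallest p, up to 3 members per list with the smallest p, and a set of marker genes; Myl9, Npas4, Ttr and Csf1r, and other members named because their groups did not overlap or their counts were low, were chosen after their values were seen.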

Additional observations from a re-analysis of the deposited data

How the results depend on the processing

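Genes called for PA against control remained 0 under every alternative run but the fit without a filter on low counts, which called 23 of 31611 genes, among them Spp1, Col5a2, Ccn1, Gfap and Fos. In that fit edgeR estimated no variation of the spread between genes of a level (infinite prior degrees of freedom, against 5.59), and the share of intervals within 2-fold was 44.1%, against 77.5%. With the replicate block the smallest adjusted p was 0.438, and 0.14 with the block on the 6 libraries only; the block changed no call of PA against control. PA + PS2 against PA gave 0 genes with the filter and 57 with the replicate block, 330 without the filter, 136 with DESeq2, 3 without the 3 repeat 1 libraries (an alternative chosen after seeing the data), and 0 to 37 when leaving out single libraries, with 37 without control repeat 1; the cause was not tested.

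Of 85 genes given, 67 kept their sign in every alternative. Without the 3 repeat 1 libraries, Snap25 moved to 0.03, Bdnf to 0.21, Npas4 to 0.12 and Slc1a3 to −0.02 (log2). With the replicate block Mki67 moved to 0.05, and on the 6 libraries only to 0.07, where Gja1 stood at 0.00. When leaving out single libraries the log2 fold change ranged from −0.10 to 0.20 for Itga6, −0.36 to 0.01 for Itgb1, −0.17 to 0.07 for Dag1, −0.10 to 0.12 for Map2, −0.07 to 0.30 for Tubb3, −0.02 to 0.23 for Rbfox3, −0.34 to 0.09 for Snap25, −0.29 to 0.01 for Gad2, 0.00 to 0.38 for Grin2a and −0.01 to 0.16 for Slc12a5. It ranged from −1.17 to 0.08 for Bdnf, −0.10 to 0.62 for Slc1a3, −0.37 to 0.13 for Gja1, −0.29 to 0.06 for Csf1r, −0.35 to 0.33 for Mki67, −0.49 to 0.11 for Top2a and −0.07 to 0.38 for Mcm3. Genes under 1 CPM could not be bounded within 2-fold in most cases.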
